A study of Mus musculus with 65 samples.

Results

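The 40 genes described here encode the machinery that copies DNA and divides cells. They were taken as 14 replication genes of S phase (Pcna, Mcm2 to Mcm7, Cdc6, Cdt1, Cdc45, Gins1, Rrm1, Rrm2 and Tyms) and 26 mitotic genes (Mki67, Top2a, Ccna2, Ccnb1, Ccnb2, Cdk1, Bub1, Bub1b, Mad2l1, Cdc20, Plk1, Aurka, Aurkb, Birc5, Kif11, Kif20a, Kif23, Kif2c, Cenpa, Cenpe, Cenpf, Ttk, Nusap1, Tpx2, Foxm1 and Ube2c). A gene was read from its single-gene probe set with the highest mean in a tissue, which gave 39 of the 40 genes, among 18194 genes on the array. Ccnb1 has no single-gene probe set, so its expression is not analysed here and 25 mitotic genes remained, though it is among the promoters described below. Mki67, Top2a and Ccna2 are made from S phase on and were kept with the mitotic genes.

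RNA was measured on Affymetrix arrays in 17 mammary glands and 48 mammary tumours of mice, and the tissues were kept apart. The glands came from BALB/c littermates, heterozygous or wild-type for Tgfb1, that were 10 weeks old, had all received estrogen and progesterone, and were given 10 cGy or a sham treatment. Heterozygous glands were 3 sham, 2 taken 1 week after 10 cGy and 3 taken 4 weeks after it, and wild-type glands were 3 of each kind. All sham glands were taken at 1 week, so a 4-week gland differs from a sham gland in time as well as in dose. Each RNA was made from the rear piece of an inguinal gland, which holds fat, epithelium, vessels and possibly neighbouring muscle, after its lymph node had been taken out. The tumours arose from transplanted mammary tissue without p53, put into mammary fat pads from which the host epithelium had been removed, in irradiated heterozygous hosts (10 tumours), sham heterozygous hosts (6), irradiated wild-type hosts (23) and sham wild-type hosts (9). The tumour cells therefore carried no p53 in any group, and only the host differed in Tgfb1 and in dose, a dose that the sources used here do not state for the tumours. The labels of 1 tumour give both host treatments, and by its title it was counted with the irradiated wild-type hosts. The comparisons ask what a low dose of radiation does to the mammary gland and to tumours that form in it, and whether a lost copy of Tgfb1, which encodes the growth inhibitor TGF-beta, alters that response.

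A cell that enters the cycle first loads the Mcm2 to Mcm7 ring onto DNA with the help of Cdc6 and Cdt1. Cdc45 and the GINS complex then turn that ring into an active helicase, while Pcna clamps the polymerases and ribonucleotide reductase (Rrm1 and Rrm2) supplies nucleotides. The mitotic genes rise later, in G2 and M phase, when Cdk1 with its B-type cyclins starts mitosis, spindle motors and centromere proteins move the chromosomes, and Bub1, Bub1b, Mad2l1 and Ttk hold back Cdc20 until every chromosome is attached. E2F factors are known to act on many genes of the replication class. The MuvB complexes, with B-Myb and FoxM1, are known to act on many genes of the mitotic class through CHR words in their promoters. CCAAT boxes are a further promoter word that was searched here. Mammary epithelium divides in waves with the ovarian hormones, and TGF-beta restrains that division.

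The promoters of the genes differ in these words. In the 250 bases before the start of the RefSeq gene models (GRCm38.p6), searched on both strands, a CHR word (TTTGAA or TTTAAA) was found in 61.9% of the 21 mitotic genes with an entry, in 25.0% of the 12 replication genes with an entry, and in 28.1% of all 27025 genes of the table. A CCAAT box (CCAAT) stood in 81.0% of the mitotic genes, in 75.0% of the replication genes and in 37.5% of all genes. Both kinds occurred together in 52.4% of the mitotic genes, 25.0% of the replication genes and 11.2% of all genes. An E2F-type word (TTT followed by CC, CG, GC or GG and then CGC) was found in 4.76% of the mitotic genes, 33.3% of the replication genes and 2.16% of all genes. A match of letters is a description and does not show that a factor binds. Tpx2, Ccna2, Mcm4, Foxm1, Kif20a, Gins1 and Aurkb were not matched to a promoter. The sequences below were chosen after their words had been counted, because they show each arrangement clearly, and each ends at the base before the gene's start. In the first pair the capitals mark E2F-type words only, some of which overlap on opposite strands. In the other sequences the capitals mark CCAAT boxes, CHR words and, in Cdk1, 1 E2F-type word.
Mcm6 (chr1:128359706-128359955, minus strand): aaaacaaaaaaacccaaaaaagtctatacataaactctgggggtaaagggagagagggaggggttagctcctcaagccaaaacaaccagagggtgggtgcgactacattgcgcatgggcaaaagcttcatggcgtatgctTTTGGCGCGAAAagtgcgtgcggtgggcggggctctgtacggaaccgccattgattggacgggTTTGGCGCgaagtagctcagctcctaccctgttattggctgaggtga
Mcm5 (chr8:75109259-75109508, plus strand): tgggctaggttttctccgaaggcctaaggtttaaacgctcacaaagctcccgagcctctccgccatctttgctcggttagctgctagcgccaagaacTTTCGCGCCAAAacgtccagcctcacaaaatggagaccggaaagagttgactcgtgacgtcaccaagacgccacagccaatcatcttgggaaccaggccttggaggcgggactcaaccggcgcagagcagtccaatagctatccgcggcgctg
Ccnb2 (chr9:70421555-70421804, minus strand): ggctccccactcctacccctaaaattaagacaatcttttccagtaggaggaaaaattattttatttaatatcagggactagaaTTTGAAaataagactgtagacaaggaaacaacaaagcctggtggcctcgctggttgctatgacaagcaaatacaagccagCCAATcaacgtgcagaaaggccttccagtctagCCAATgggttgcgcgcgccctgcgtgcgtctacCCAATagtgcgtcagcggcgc
Top2a (chr11:99024190-99024439, minus strand): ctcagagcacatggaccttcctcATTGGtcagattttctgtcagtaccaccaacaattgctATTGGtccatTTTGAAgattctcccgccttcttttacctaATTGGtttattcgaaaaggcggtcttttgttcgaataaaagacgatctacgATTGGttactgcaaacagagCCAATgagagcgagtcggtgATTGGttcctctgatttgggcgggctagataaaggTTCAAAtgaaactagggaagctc
Cdk1 (chr10:69352913-69353162, minus strand): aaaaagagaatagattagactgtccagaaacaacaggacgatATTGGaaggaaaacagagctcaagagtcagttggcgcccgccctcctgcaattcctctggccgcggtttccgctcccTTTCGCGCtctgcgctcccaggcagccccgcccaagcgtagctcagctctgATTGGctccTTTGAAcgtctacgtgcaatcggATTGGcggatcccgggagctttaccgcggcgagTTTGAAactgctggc
Mcm6 and Mcm5 encode subunits of the replicative helicase. Ccnb2 encodes a B-type cyclin, Top2a the topoisomerase that untangles sister chromosomes, and Cdk1 the mitotic kinase. Ccnb2 carried 3 CCAAT boxes, Cdk1 3 and Top2a 6. Cdk1 and Mcm5 each carried words of all 3 kinds, and the 2 CCAAT boxes and 1 CHR word of Mcm5 and the 2 CCAAT boxes of Mcm6 are left in lower case.

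The labels and tissues were checked first. Tgfb1 read 3.81 to 4.67 on the log2 scale in the 8 heterozygous glands and 4.57 to 5.45 in the 9 wild-type glands, so the ranges touched, and it lay under the filter on dim genes in that tissue. In tumours, whose cells came from the donor tissue, Tgfb1 read 6.47 to 9.29 in heterozygous hosts and 7.88 to 11.33 in wild-type hosts. Arrays within a group correlated at 0.982 to 0.993 in glands, and in tumours at 0.918 to 0.990. Every one of the 11 luminal markers measured passed the filter in both tissues. Skeletal muscle stood out in glands, where 13 of 16 muscle markers passed the filter. Their mean ran from 4.41 to 7.28 in heterozygous sham glands, 5.11 to 7.68 in heterozygous glands at 1 week, 4.86 to 5.24 in heterozygous glands at 4 weeks, 4.58 to 11.36 in wild-type sham glands, 4.47 to 9.26 in wild-type glands at 1 week and 4.40 to 9.66 in wild-type glands at 4 weeks. The 4 muscle-rich glands were thus all wild-type: sham arrays 2 and 3, 1-week array 3 and 4-week array 3. Of 9 measured B cell and lymph node markers 4 passed the filter, with Cd79a, Ms4a1, Cr2, Blk and Fcer2a below it, and their mean was highest in wild-type 1-week array 1 (8.31), heterozygous sham array 1 (6.94) and wild-type sham array 1 (6.47), against 4.24 to 5.05 in the other glands. Each wild-type sham gland fell in 1 of these sets, so leaving out either set also selects among the wild-type sham arrays. The medians of the classes without either set of glands are given below where they changed sign or moved clearly. In such bulk RNA, fewer cells of a type and less RNA per cell cannot be told apart.

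The main feature of the cell cycle genes in glands was how far apart glands of the same group stood. The SD within groups, pooled over the 6 groups, had a median of 0.84 log2 units over the 25 mitotic genes and 0.50 over the 12 replication genes tested, against 0.19 over all 10916 genes tested. The median mitotic gene was at the 98.8th percentile of all tested genes in this spread and the median replication gene at the 94.6th. In tumours the classes were ordinary, with medians of 0.56 for mitotic and 0.46 for replication genes against 0.40 for all genes, at the 70.8th and 60.7th percentile. Cdc6 and Tyms in glands, and Tyms in tumours, lay under the filter at the 40th percentile of genes and were described but not tested.

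Glands at the low end of the replication genes were also at the low end of the mitotic genes, while the order at the upper end differed between the classes. The mean of the replication genes was 7.89, 8.17 and 8.82 in heterozygous sham arrays 1 to 3, 8.25 and 8.28 in heterozygous 1-week arrays, and 7.49, 8.71 and 8.32 in heterozygous 4-week arrays. It was 8.36, 6.97 and 7.62 in wild-type sham arrays, 7.23, 8.15 and 7.57 in wild-type 1-week arrays, and 7.84, 7.85 and 8.28 in wild-type 4-week arrays. The lowest array was wild-type sham 2, which was also the richest in muscle, and the highest was heterozygous sham 3. The mean of the mitotic genes was 6.82, 7.44 and 8.37 in heterozygous sham arrays, 7.84 and 7.62 in heterozygous 1-week arrays, and 6.36, 7.79 and 7.65 in heterozygous 4-week arrays. It was 7.97, 5.78 and 7.06 in wild-type sham arrays, 6.11, 7.86 and 7.08 in wild-type 1-week arrays, and 7.16, 7.44 and 8.38 in wild-type 4-week arrays. Low arrays in 1 class were low in the other: wild-type sham 2, wild-type 1-week 1 and heterozygous 4-week 1 were the 3 lowest in the mitotic mean.

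**Figure D1:**
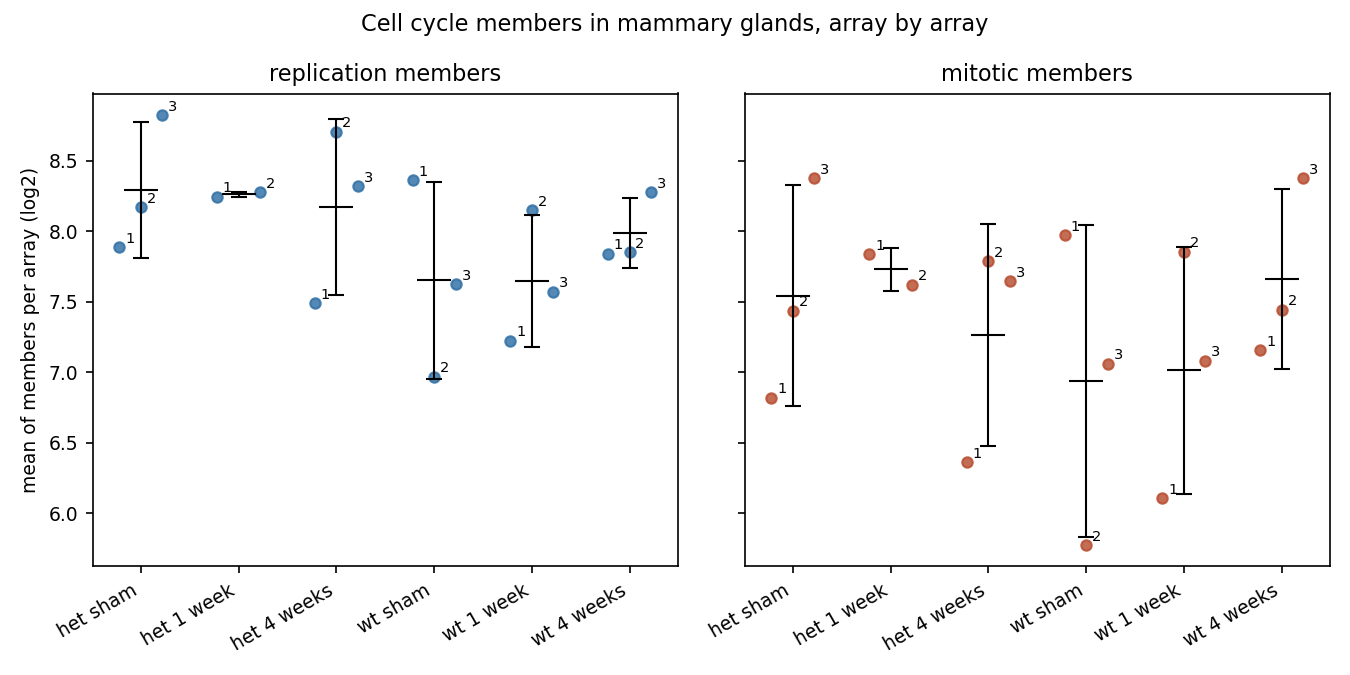
Mean log2 value of the 14 replication genes (left) and the 25 mitotic genes (right) in each gland, by group, with repeat numbers; horizontal lines are group means and bars are SD over arrays. Wild-type sham glands run from 5.78 to 7.97 in the mitotic mean, a wider range than any distance between group means.

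After group means were taken away, the replication and mitotic means correlated at 0.966 over the 17 glands, as a description of arrays that share their libraries. Within the classes, Cdk1 followed the mean of its own class at 0.9945, Cdc6 at 0.9925 and Rrm2 at 0.9915. The exceptions were Tyms, which makes the thymidine precursor of DNA (0.610), and Foxm1, the transcription factor of the mitotic genes (0.658). Both were also the genes with the smallest SD of their class, and both were dim probe sets in glands. The Foxm1 probe set used in glands had an SD of 0.23, and those not used had 0.32, 0.35 and 0.10. In tumours Foxm1 was read from another probe set and followed its class at 0.839. Among marker lists, the correlation within groups with the mitotic mean was -0.28 for skeletal muscle, -0.30 for B cells and lymph nodes, -0.50 for adipocytes, -0.50 for endothelium and 0.01 for luminal epithelium. With the replication mean the same lists gave -0.37, -0.17, -0.48, -0.40 and -0.15. For T cells, macrophages, basal epithelium and fibroblasts the values were -0.17, -0.12, -0.26 and -0.35 with the mitotic mean. They were -0.04, -0.09, -0.26 and -0.40 with the replication mean. The part of these cell types in the spread was not tested beyond these values.

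**Figure D2:**
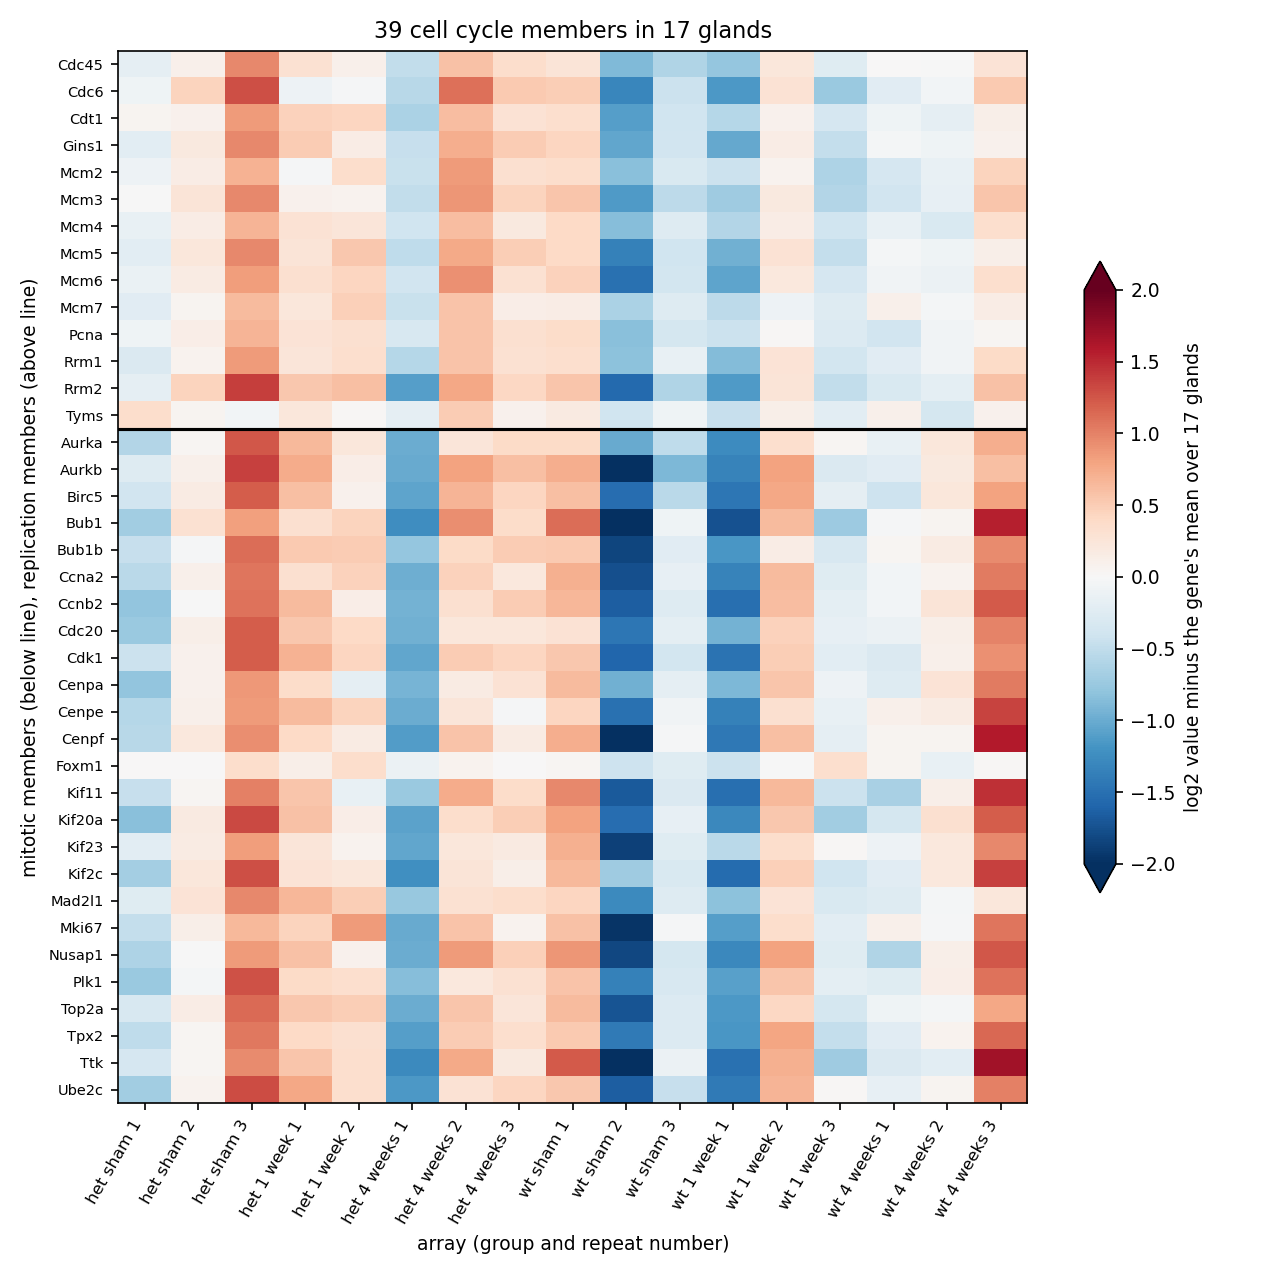
Each of the 39 measured genes (rows) in each of the 17 glands (columns), as its log2 value minus its mean over the glands; blue is low, red is high, and the end colours also hold values beyond 2. The same columns are blue through both classes, namely heterozygous 4 weeks 1, wild-type sham 2 and wild-type 1 week 1, while Foxm1 and Tyms stay pale.

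Mki67, the proliferation antigen, read 8.76, 9.35 and 9.87 in heterozygous sham glands, 9.67 and 10.08 at 1 week and 8.22, 9.79 and 9.29 at 4 weeks. In wild-type glands it read 9.81, 7.26 and 9.20 after sham, 8.13, 9.58 and 9.01 at 1 week, and 9.32, 9.21 and 10.30 at 4 weeks. Every pair of groups overlapped except heterozygous and wild-type glands at 1 week. Pcna, the polymerase clamp, read 11.21, 11.43 and 11.98 in heterozygous sham glands, 11.57 and 11.62 at 1 week and 10.97, 11.86 and 11.61 at 4 weeks. In wild-type glands it read 11.66, 10.46 and 10.95 after sham, 10.87, 11.32 and 11.03 at 1 week, and 10.92, 11.22 and 11.33 at 4 weeks. Its span was narrower than that of Mki67, and wild-type sham 2 was lowest in both. Higher up the order differed: wild-type 4-week array 3, highest in Mki67 (10.30), read 11.33 in Pcna, against 11.98 in heterozygous sham 3.

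The genes with the widest SD showed the same arrays at their ends. Ttk, a checkpoint kinase, read 5.65, 6.01 and 6.92 in heterozygous sham glands, 6.54 and 6.32 at 1 week and 4.70, 6.73 and 6.18 at 4 weeks, and in wild-type glands 7.20, 3.94 and 5.86 after sham, 4.48, 6.69 and 5.27 at 1 week and 5.69, 5.76 and 7.66 at 4 weeks. Bub1, which loads the checkpoint at kinetochores, ran from 4.66 in wild-type sham 2 to 8.24 in wild-type 4-week 3, and Cenpf, a kinetochore protein, from 4.83 to 8.57 in the same arrays. Aurkb, the kinase that corrects faulty attachments, was also lowest in wild-type sham 2 (4.57) but highest in heterozygous sham 3 (8.02). In the replication class, Rrm2 ran from 7.01 in wild-type sham 2 to 9.96 in heterozygous sham 3, and Cdc6 from 3.92 to 6.51 in the same arrays. Mcm5 ranged from 7.43 to 9.76 and Mcm6 from 7.17 to 9.57, both lowest in wild-type sham 2. Thus the upper end of the replication genes was a heterozygous gland, while that of Ttk, Bub1 and Cenpf was the muscle-rich wild-type 4-week gland 3.

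In wild-type glands, no cell cycle gene passed limma's test (adjusted p under 0.05) 1 or 4 weeks after 10 cGy, and none did so at an unadjusted p under 0.05. Over all tested genes 0% passed the adjusted threshold in both comparisons, with 4.64% at an unadjusted p under 0.05 at 1 week and 2.15% at 4 weeks. At 1 week the median difference from sham was -0.02 for replication genes (7 of 14 higher) and 0.09 for mitotic genes (19 of 25 higher), against -0.03 for all genes and 42.4% of them higher. Of the single arrays left out, sham arrays moved these medians furthest. They were -0.37 and -0.51 without sham array 2, and 0.35 and 0.59 without sham array 1. Irradiated arrays mattered too: Cdc45 (-0.10) and Cdt1 (-0.063) turned below 0 without 1-week array 2. Without the 4 muscle-rich glands the medians were -0.63 and -0.99, and without the 3 lymph-node-rich glands 0.59 and 1.03. At 4 weeks all 14 replication genes and all 25 mitotic genes had a higher mean than after sham, with medians of 0.33 and 0.72 against 0.02 for all genes, of which 56.1% were higher. The genes move together from array to array, so these counts are not independent of each other.

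Cenpe, the motor that links kinetochores to microtubules, read 6.24, 6.32 and 7.50 in wild-type glands at 4 weeks, against 6.58, 4.65 and 6.08 in wild-type sham glands. The ranges overlapped through sham array 1, and limma gave a difference of 0.92 ± 0.55 (SE) with an adjusted p of 0.9997. Bub1b differed by 0.89 ± 0.56 with the same adjusted p from limma, Cdc45 by 0.49 ± 0.36 and Mcm7 by 0.32 ± 0.26. Sham array 2 alone set much of this: without it the median difference at 4 weeks was -0.01 for replication and 0.16 for mitotic genes. Leaving out the 4 muscle-rich glands keeps only wild-type sham array 1, itself lymph-node-rich and the highest wild-type sham array in both class means. That setting also leaves out wild-type 4-week array 3, the highest gland in the mitotic mean. The medians were then -0.52 and -0.63, and the part of each left-out array in this was not tested. Without the 3 lymph-node-rich glands, which keeps only the muscle-rich wild-type sham arrays 2 and 3, they were 0.70 and 1.30.

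The 4-week and 1-week wild-type glands both received 10 cGy, and their comparison spans 3 arrays a side. All 14 replication genes and all 25 mitotic genes were higher at 4 weeks, with medians of 0.36 and 0.62 against 0.06 for all genes, of which 62.1% were higher. Mcm7, a helicase subunit, read 10.58, 10.43 and 10.61 at 4 weeks and 9.94, 10.37 and 10.22 at 1 week, and it alone did not overlap, where 10.6% of all tested genes were likewise higher without overlap. Its limma difference was 0.36 ± 0.26 with an adjusted p of 0.657. No member passed limma's test adjusted (0% of all genes) or at an unadjusted p under 0.05 (9.68% of all genes). Without 1-week array 1, which is low in both classes and highest in lymph node markers, the medians were 0.10 and 0.18, and without the 4 muscle-rich glands they were 0.17 and 0.31.

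In heterozygous glands the median of the mitotic genes was above sham at 1 week and below it at 4 weeks. At both times the sign turned in some fits with a single array left out, in 2 of 28 alternatives at 4 weeks. At 1 week after 10 cGy the median difference from sham was 0.03 for replication genes (10 of 14 higher) and 0.20 for mitotic genes (23 of 25 higher), against -0.07 for all genes and 32.6% of them higher. Without sham array 1, the lymph-node-rich gland of that comparison, both medians were -0.19. At 4 weeks 13 of 14 replication genes and 24 of 25 mitotic genes were lower than in sham glands, with medians of -0.086 and -0.31 against 0.02 for all genes, of which 44.7% were lower. No member passed limma's test at either time, adjusted (0% of all genes at 1 week, 0.0183% at 4 weeks) or at an unadjusted p under 0.05 (3.44% and 5.21% of all genes). Rrm2, the regulated subunit of ribonucleotide reductase, read 7.47, 9.35 and 8.99 at 4 weeks and 8.38, 9.02 and 9.96 after sham, and the ranges overlapped. Its limma difference was -0.52 ± 0.57 with an adjusted p of 0.996. Kif2c, a microtubule-depolymerising kinesin, differed by -0.57 ± 0.60 with the same adjusted p from limma. Without 4-week array 1 the medians at 4 weeks were 0.21 and 0.18, and without the lymph-node-rich sham array 1 they were -0.32 and -0.67.

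Against heterozygous glands at 1 week, all 25 mitotic genes were lower at 4 weeks, with a median of -0.47, while replication genes had a median of -0.10 and 10 of 14 lower. Over all genes the median was 0.09, and 32.9% were lower. The 5 mitotic genes Mad2l1, Cdc20, Plk1, Cenpe and Foxm1 were lower without overlap, where 7.99% of all tested genes were. Plk1, the polo kinase that drives entry into mitosis, read 5.92, 6.99 and 7.07 at 4 weeks and 7.15 and 7.12 at 1 week. The gap between the groups was small, and limma gave -0.47 ± 0.64 with an adjusted p of 0.827. Cenpe read 5.16, 6.38 and 6.13 at 4 weeks and 6.78 and 6.58 at 1 week, a limma difference of -0.79 ± 0.61 with an adjusted p of 0.674. No member passed limma's test adjusted (0% of all genes) or unadjusted (10.2% of all genes). Without 4-week array 1 the replication median was 0.20 and the mitotic median -0.047.

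**Figure D3:**
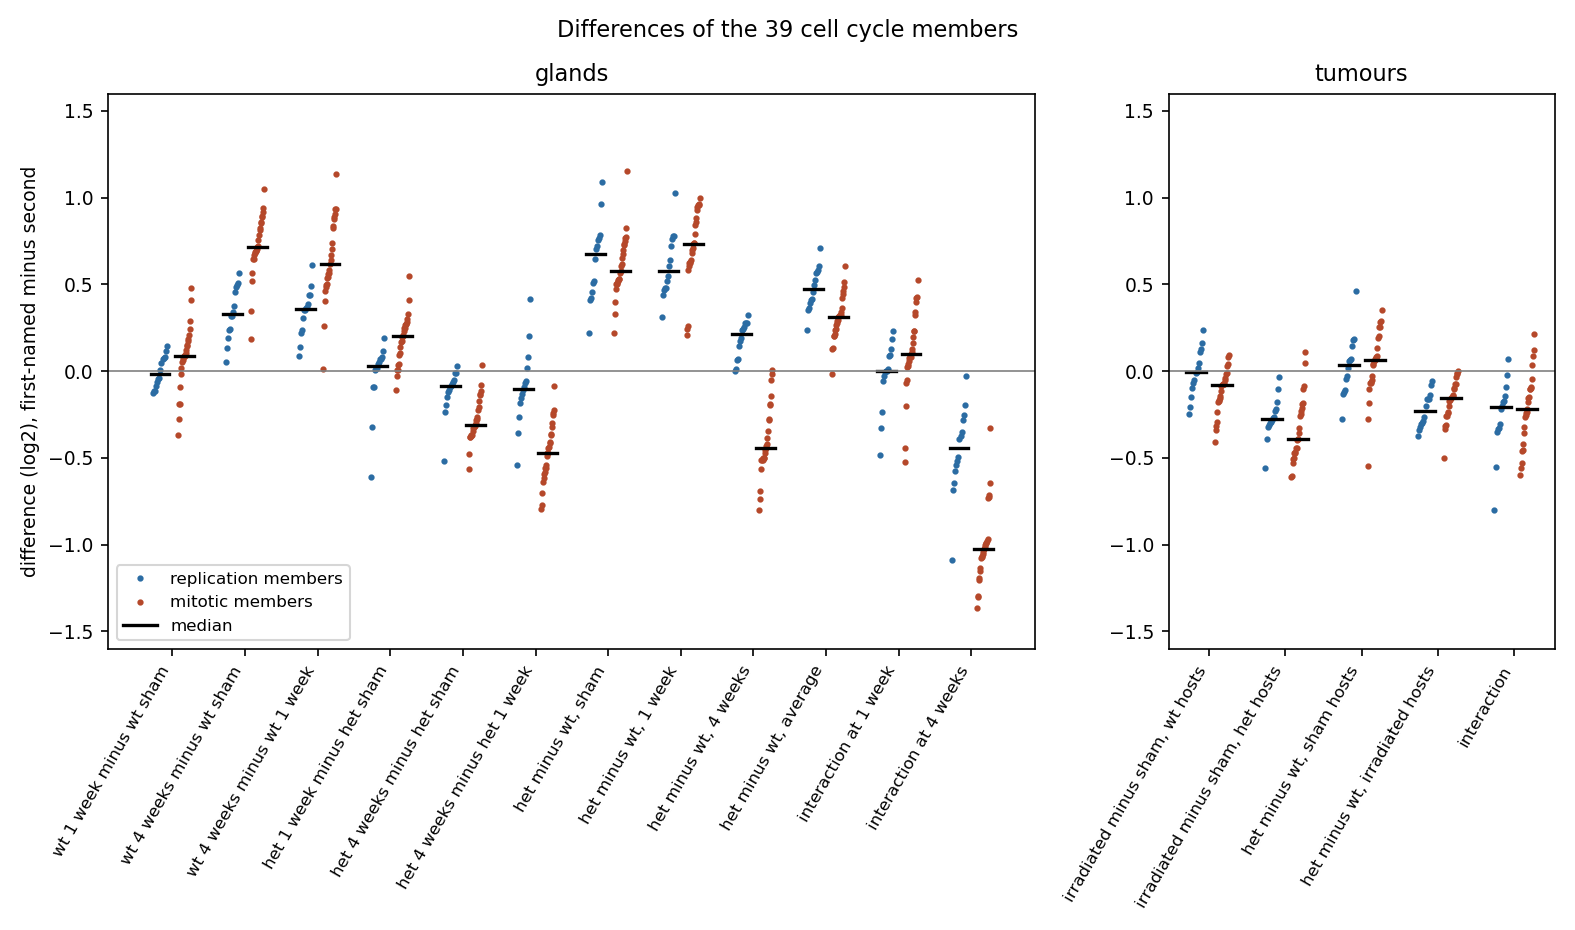
Difference on the log2 scale of each measured cell cycle gene (points, blue replication, red mitotic) and the class median (bars) in 12 gland comparisons (left) and 5 tumour comparisons (right). Mitotic genes lie above replication genes in wild-type 4 weeks minus sham (0.72 and 0.33) and below them in heterozygous minus wild-type at 4 weeks (-0.44 and 0.21), and no point passed limma's adjusted test.

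The interaction, which is the heterozygous difference from sham minus the wild-type one, tested whether the responses to 10 cGy differed. At 4 weeks it was below 0 for all 14 replication and all 25 mitotic genes, with medians of -0.44 and -1.03, against a median of 0.00 over all genes and 49.3% of them below 0. Cenpe had -1.30 ± 0.78 and Kif23, a kinesin of the midbody, -1.29 ± 0.75, both with an adjusted p of 0.99995 from limma. Cdc45 had -0.64 ± 0.51. No member passed limma's test adjusted (0% of all genes) or at an unadjusted p under 0.05 (1.73% of all genes), so the opposite signs of the medians in the genotypes are not shown to differ. At 1 week the medians were 0.00 and 0.10, with 8 of 14 and 20 of 25 genes above 0 against 44.2% of all genes, and again no member passed, adjusted (0% of all genes) or unadjusted (2.83%). The 1-week medians were 0.38 and 0.75 without wild-type sham array 2, and both were -0.35 without wild-type sham array 1. The 4-week medians were -0.068 and -0.42 without wild-type sham array 2. Without the 4 muscle-rich glands they were 0.66 and 1.23 at 1 week and 0.41 and 0.32 at 4 weeks, and without the 3 lymph-node-rich glands -0.72, -1.18, -1.04 and -1.92 in the same order.

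Between genotypes, heterozygous glands had the higher mean for all 39 measured genes in sham glands and for all 39 at 1 week. In sham glands the median difference was 0.68 for replication and 0.58 for mitotic genes, against -0.01 for all genes and 47.1% of them higher. Cdt1, the loading factor of the helicase, read 9.00, 9.03 and 9.79 in heterozygous and 9.28, 7.84 and 8.54 in wild-type sham glands. The ranges overlapped through wild-type sham 1, and limma gave 0.72 ± 0.35 with an adjusted p of 0.968. Aurkb differed by 1.15 ± 0.69 and Foxm1 by 0.33 ± 0.18, both with an adjusted p of 0.968 from limma. No member passed limma's test adjusted (0% of all genes) or unadjusted (3.36%), and without the 4 muscle-rich glands the medians were -0.086 and -0.37, against the single remaining wild-type sham gland. They were 0.27 and 0.039 without wild-type sham array 2 alone, and 1.25 and 1.51 without the 3 lymph-node-rich glands.

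At 1 week the 2 heterozygous arrays lay close together and high, while the 3 wild-type arrays were spread. The medians were 0.58 for replication and 0.73 for mitotic genes, against -0.05 for all genes and 41.0% of them higher. The replication genes Pcna, Mcm4, Mcm6, Mcm7, Cdt1 and Rrm2 and the mitotic genes Mki67, Top2a, Bub1b, Mad2l1 and Cenpe were higher without overlap, 6 of the 12 tested and 5 of 25, where 8.67% of all tested genes were. Mcm7 read 10.70 and 10.94 in heterozygous and 9.94, 10.37 and 10.22 in wild-type glands, a limma difference of 0.64 ± 0.29 with p = 0.042 and an adjusted p of 0.646. It was the only member at an unadjusted p under 0.05 in limma, where 7.62% of all genes were, and 0 members passed after adjustment (0% of all genes). Mad2l1, the checkpoint protein that binds Cdc20, read 9.36 and 9.19 in heterozygous and 7.88, 8.97 and 8.39 in wild-type glands, a limma difference of 0.86 ± 0.47 with an adjusted p of 0.718. Without wild-type array 1, the gland highest in lymph node markers, the medians were 0.42 and 0.20.

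At 4 weeks the medians of the classes had opposite signs, and single arrays turned either sign. All 14 replication genes were higher in heterozygous than in wild-type glands, with a median of 0.21, while 24 of 25 mitotic genes were lower, with a median of -0.44. Over all genes the median was -0.01, with 47.9% higher and 52.1% lower. Without heterozygous 4-week array 1 the mitotic median was 0.057, and without heterozygous 4-week array 2 the replication median was -0.073. Pcna read 10.97, 11.86 and 11.61 in heterozygous and 10.92, 11.22 and 11.33 in wild-type glands, a limma difference of 0.32 ± 0.28 with an adjusted p of 0.845. Cenpe read 5.16, 6.38 and 6.13 in heterozygous and 6.24, 6.32 and 7.50 in wild-type glands, a limma difference of -0.80 ± 0.55 with an adjusted p of 0.810. Both genes overlapped between the genotypes, and no member passed limma's test adjusted (0.0183% of all genes) or unadjusted (6.16%).

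The distance between the classes was also taken within each array. The mitotic mean minus the replication mean averaged -0.91 ± 0.23 (SD, n = 3) in heterozygous and -0.33 ± 0.40 (n = 3) in wild-type glands at 4 weeks. The wild-type value was highest in array 3 (0.10), the gland rich in muscle and highest in the mitotic mean, and lowest in array 1 (-0.68). The other groups averaged -0.75 ± 0.31 in heterozygous sham, -0.53 ± 0.17 (n = 2) in heterozygous 1-week, -0.71 ± 0.42 in wild-type sham and -0.63 ± 0.43 in wild-type 1-week glands (n = 3 where not given). Heterozygous and wild-type arrays did not leave a gap at 4 weeks, since heterozygous array 3 (-0.68) met wild-type array 1. Without the 4 muscle-rich glands the genotype medians at 4 weeks were 0.32 for replication and -0.06 for mitotic genes. As given above, single arrays turned either sign. The mitotic median was 0.06 without heterozygous 4-week array 1, and the replication median was -0.07 without heterozygous 4-week array 2.

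**Figure D4:**
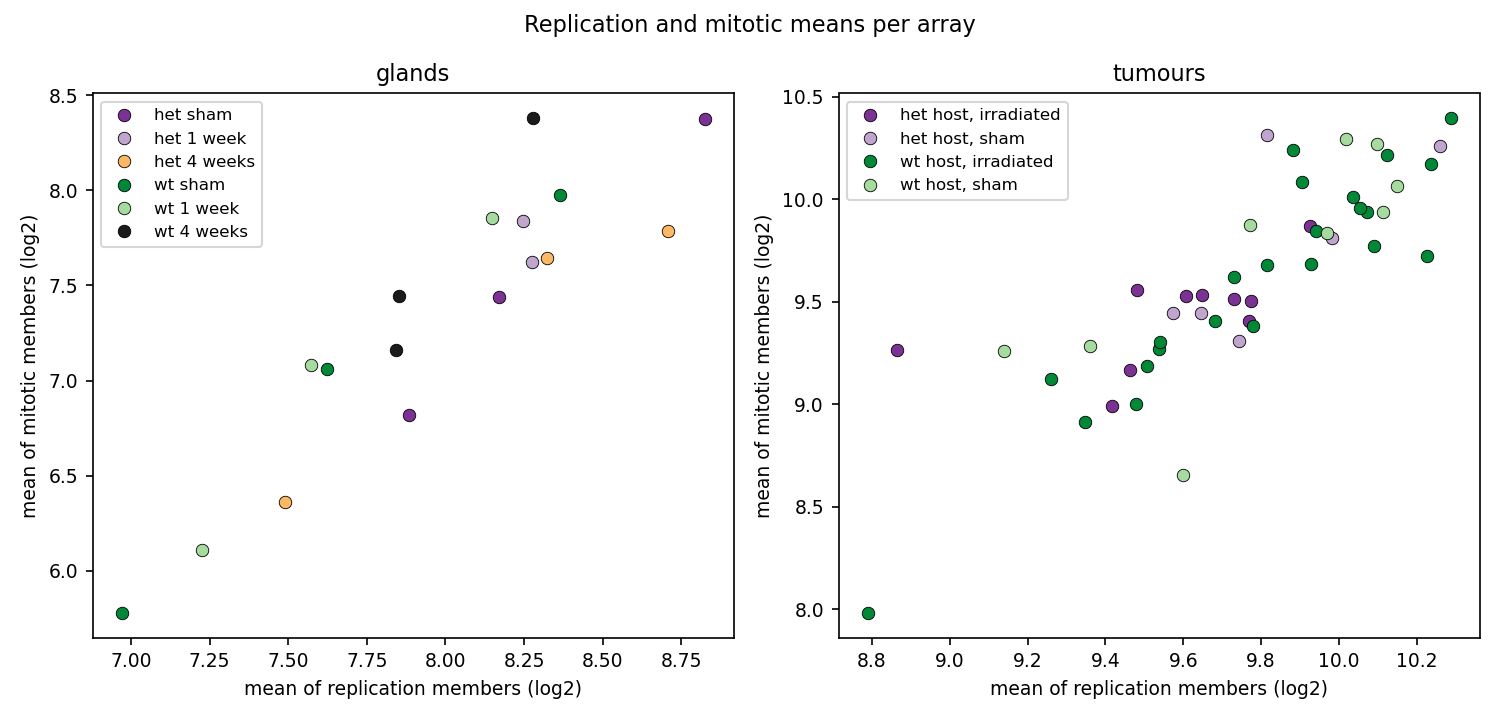
Mean log2 value of the mitotic genes against that of the replication genes, 1 point per array, for 17 glands (left) and 48 tumours (right), coloured by group. Glands lie close to 1 line, from wild-type sham 2 at its lower end to heterozygous sham 3 and wild-type 4-week 3 at its upper end, and tumours scatter more (correlation within groups 0.966 in glands and 0.832 in tumours).

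Averaged over sham, 1 week and 4 weeks, heterozygous glands had higher means for all 14 replication genes (median 0.48) and for 24 of 25 mitotic genes (median 0.31), against -0.03 for all genes and 42.2% of them higher. The replication genes Pcna, Mcm5, Mcm6, Mcm7, Cdt1 and Gins1 had an unadjusted limma p under 0.05, as 12% of all tested genes did, and no mitotic gene did. Pcna differed by 0.45 ± 0.17 with an unadjusted limma p of 0.018 and an adjusted p of 0.335. Cdt1 differed by 0.53 ± 0.21 with an adjusted limma p of 0.358, and Mad2l1, the first of the mitotic genes, by 0.51 ± 0.25 with 0.424. After adjustment 0 members passed, where 0.0458% of all genes did. Leaving out wild-type sham 2 lowered the medians to 0.36 and 0.09, and leaving out the 4 muscle-rich glands lowered them to 0.25 and 0.081. Without the 3 lymph-node-rich glands they were 0.61 and 0.47. These comparisons share arrays with the comparisons above and do not add independent evidence.

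In tumours the host groups overlapped in both class means, and both means had their widest range in irradiated wild-type hosts. The replication mean ran from 8.86 (median 9.63) to 9.93 in irradiated heterozygous hosts, 9.57 (9.78) to 10.26 in sham heterozygous hosts, 8.79 (9.88) to 10.29 in irradiated wild-type hosts and 9.14 (9.97) to 10.15 in sham wild-type hosts. The mitotic mean ran from 8.99 (median 9.51) to 9.87, 9.31 (9.63) to 10.31, 7.98 (9.69) to 10.40 and 8.66 (9.87) to 10.29 in the same 4 groups. The lowest tumour in both means was irradiated wild-type host 22. The next lowest in the mitotic mean was sham wild-type host 5, whose mean of 8 endothelial markers, 7 of them above the filter and Vwf below it, was 11.65, the highest in its group (lowest 6.32, median 7.07). The part of endothelial cells in its low value was not tested.

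**Figure D5:**
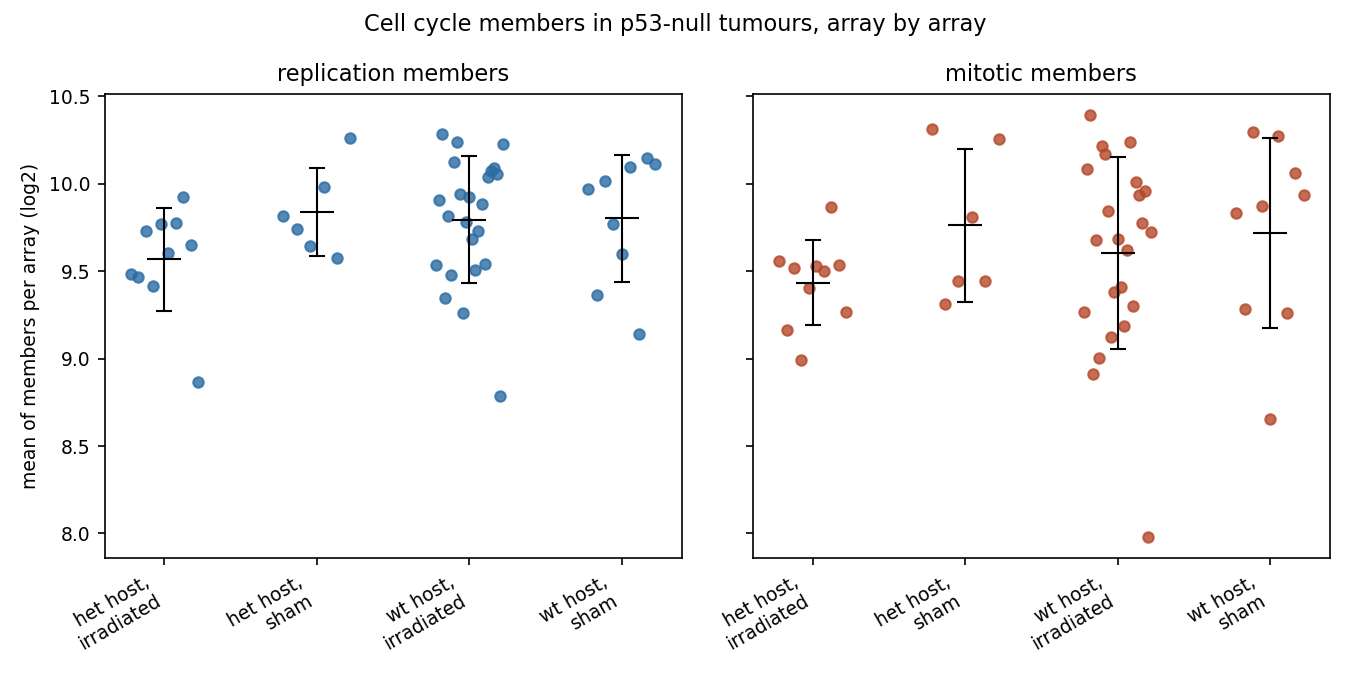
Mean log2 value of the replication genes (left) and of the mitotic genes (right) in each of 48 tumours, by host group; horizontal lines are group means and bars are SD. All groups overlap, and single low tumours stand at 8.86 (replication, irradiated heterozygous host) and 7.98 (mitotic, irradiated wild-type host).

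The coupling of the classes was looser in tumours than in glands, at 0.832 within groups over 48 tumours. Kif20a, a kinesin of cell cleavage, followed the mitotic mean most closely (0.959), with Bub1b and Tpx2, a spindle assembly factor, at 0.942 each. In the replication class the members scattered, from Cdc6 at 0.833 to Cdt1 at 0.647, Rrm2 at 0.552 and Tyms at 0.534. Several replication genes followed the mitotic mean at least as well as that of their own class: Gins1 at 0.832 against 0.794, Rrm1 at 0.814 against 0.771 and Pcna at 0.755 against 0.672. Kif20a itself spanned 6.81 to 10.20 over the irradiated wild-type hosts. Mki67 and Pcna had the smallest SD of their class.

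In irradiated heterozygous hosts the tumours had lower means than in sham heterozygous hosts for all 14 replication genes and for 23 of 25 mitotic genes, with medians of -0.28 and -0.39 against 0.00 for all genes, of which 49.6% were lower. Mcm3, a helicase subunit, ran from 9.19 (median 9.81) to 10.16 in the 10 irradiated hosts and from 9.76 (10.30) to 10.63 in the 6 sham hosts. The ranges overlapped, and limma gave -0.56 ± 0.20 with an unadjusted p of 0.00699 and an adjusted p of 0.999. Cdc20, the activator of the anaphase-promoting complex, ran from 10.34 (10.75) to 11.09 in irradiated and from 10.99 (11.20) to 11.86 in sham hosts, a limma difference of -0.61 ± 0.24 with an adjusted p of 0.999. Cenpf differed by -0.60 ± 0.28. These 3 were the members at an unadjusted limma p under 0.05, where 4.05% of all tested genes were, and 0 members passed after adjustment, as 0% of all genes did.

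In wild-type hosts the medians were -0.01 for replication genes (6 of 14 higher) and -0.08 for mitotic genes (4 of 25 higher), against 0.00 for all genes and 48.9% of them higher. Aurka, the centrosome kinase, ran from 7.38 (median 8.83) to 9.73 in irradiated and from 8.32 (9.42) to 10.29 in sham wild-type hosts, a limma difference of -0.41 ± 0.24 with an adjusted p of 0.793. Foxm1 differed by -0.32 ± 0.17 with an adjusted limma p of 0.769, and Mcm3 lay higher, by 0.24 ± 0.15 with 0.830. No member passed limma's test, adjusted (0% of all genes) or unadjusted (6.59% of all genes). Of the standard readouts, Mcm2 differed by -0.21 ± 0.13, Mki67 by -0.18 ± 0.17, Pcna by 0.11 ± 0.11, Cdk1 by 0.04 ± 0.25 and Plk1 by -0.07 ± 0.18. Cdk1 reached 13.30 in irradiated wild-type host 3, against a group median of 10.60, and that tumour was also the highest in the mitotic mean (10.40).

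The difference between these responses was tested as an interaction. It was below 0 for 13 of 14 replication and 21 of 25 mitotic genes, with medians of -0.21 and -0.22, against 0.01 for all genes and 48.5% of them below 0. Mcm3 had -0.80 ± 0.25 with an unadjusted limma p of 0.00244 and an adjusted p of 0.99968, and it was the only member under 0.05 before adjustment, where 4.75% of all genes were. Cdc20 had -0.60 ± 0.30. After adjustment no member passed, as 0% of all genes did.

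Between host genotypes, the tumours of sham hosts were alike in the medians, at 0.04 for replication and 0.06 for mitotic genes against -0.01 for all genes. There 8 of 14 and 16 of 25 genes were higher in heterozygous hosts, as 48.7% of all genes were. Foxm1 ran from 6.99 (median 7.30) to 7.89 in heterozygous and from 7.21 (7.93) to 8.83 in wild-type sham hosts, a limma difference of -0.54 ± 0.23, and Mcm3 differed by 0.46 ± 0.20, both with an adjusted p of 0.962. These 2 had an unadjusted limma p under 0.05, where 5.16% of all genes did, and 0 members passed after adjustment (0% of all genes).

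In irradiated hosts all 14 replication genes and all 25 mitotic genes had lower means in heterozygous than in wild-type hosts, with medians of -0.23 and -0.15 against 0.00 for all genes, of which 50.5% were lower. For Cdk1 the difference was -0.0005, so that count holds a value next to 0. Mcm3 differed by -0.34 ± 0.15 with an adjusted limma p of 0.901, Mcm4 by -0.31 ± 0.15 with 0.931, Mcm7 by -0.27 ± 0.13 with 0.933 and Kif11, the motor that separates the spindle poles, by -0.50 ± 0.24 with 0.927. These 4 had an unadjusted limma p under 0.05, where 5.32% of all genes did, and 0 passed after adjustment (0% of all genes). Kif11 ran from 7.20 (median 8.05) to 8.58 in heterozygous and from 6.22 (8.48) to 9.56 in wild-type irradiated hosts, so the wild-type hosts held both ends. This comparison and the one within heterozygous hosts share the 10 tumours of irradiated heterozygous hosts.

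Other genes of the cycle were taken as lists. In glands 27 other replication genes (such as origin factors, polymerase subunits and clamp loaders) followed the replication mean at 0.996 within groups, and 40 other mitotic genes followed the mitotic mean at 0.998. Of these lists 0 genes passed limma's adjusted test in any gland or tumour comparison. Over all tested genes 0% to 0.0458% passed in gland comparisons and 0% in tumour comparisons. At 4 weeks in wild-type glands 25 of 27 and 39 of 40 were higher than after sham (medians 0.25 and 0.55), and in heterozygous minus wild-type glands at 4 weeks 25 of 27 replication genes were higher and 32 of 40 mitotic genes lower (medians 0.15 and -0.23). These lists come from the same arrays and follow the means of the members, so they add no independent evidence. In heterozygous minus wild-type glands at 4 weeks, the members' own medians turned sign when single heterozygous arrays were left out. In wild-type 4 weeks minus sham, only the replication median turned with a single array left out, to -0.01 without wild-type sham array 2. Orc6, a subunit of the origin recognition complex, averaged 7.34 ± 0.18 in heterozygous and 6.97 ± 0.13 in wild-type sham glands (SD, n = 3 each), a limma difference of 0.37 ± 0.11 with an adjusted p of 0.968. Dlgap5, a spindle protein, averaged 5.81 ± 0.48 in wild-type glands at 4 weeks and 5.07 ± 0.87 after sham (SD, n = 3 each), a limma difference of 0.74 ± 0.42 with an adjusted p of 0.99974.

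In glands, the genes that start the cycle and those that restrain it varied less. The SD within groups had a median of 0.25 over 10 tested G1 cyclins, their kinases and E2F activators, and 0.27 over 10 tested inhibitors and pocket proteins. Ccnd1, the D-type cyclin that answers growth signals, averaged 10.51 ± 0.12 (SD, n = 2) in heterozygous and 9.91 ± 0.26 (n = 3) in wild-type glands at 1 week, a limma difference of 0.60 ± 0.22 with an adjusted p of 0.583. Ccne1, the cyclin of S phase entry, differed by 0.54 ± 0.21 between heterozygous and wild-type sham glands, with an adjusted limma p of 0.968. Cdkn1a, the p21 inhibitor that p53 induces, averaged 7.94 ± 0.21 at 4 weeks and 8.65 ± 0.14 at 1 week after 10 cGy in wild-type glands (SD, n = 3 each). Its limma difference was -0.71 ± 0.14, with an unadjusted p of 0.000134 and an adjusted p of 0.233. Cdkn1c, the p57 inhibitor, averaged 9.24 ± 0.05 (SD, n = 3) at 4 weeks and 8.25 ± 0.01 (n = 2) at 1 week in heterozygous glands, a limma difference of 0.98 ± 0.25 with an adjusted p of 0.322.

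In tumours, the same lists gave 0 calls, where 0% of all tested genes were called. There the SD within groups had a median of 0.36 over 11 tested G1 genes and 0.69 over 11 tested inhibitors and pocket proteins, the second above the 0.56 of the mitotic and the 0.46 of the replication genes. Incenp, a partner of Aurkb, averaged 10.62 ± 0.34 (SD, n = 10) in irradiated and 11.13 ± 0.25 (n = 6) in sham heterozygous hosts, a limma difference of -0.51 ± 0.18 with an adjusted p of 0.999. Prim2, a primase subunit, averaged 8.03 ± 0.31 (SD, n = 10) in heterozygous and 8.40 ± 0.42 (n = 23) in wild-type irradiated hosts, a limma difference of -0.38 ± 0.16 with an adjusted p of 0.901. E2f1, the activator at S phase entry, averaged 7.74 ± 0.30 (SD, n = 23) in irradiated and 8.11 ± 0.39 (n = 9) in sham wild-type hosts, a limma difference of -0.37 ± 0.13 with an adjusted p of 0.542. Cdkn2a, which encodes inhibitors upstream of Rb and p53, had the widest range of those named, from 4.83 to 10.59 in irradiated wild-type hosts.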

How the data were processed

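Gland values were deposited by the authors as intensity on a linear scale and were converted to log2 here. Tumour values were deposited by the authors as log2. Per the submitters' processing notes both were made with RMA, a method that removes background, equalises the arrays and combines probes; the sources used here give no version. Array medians were 29.08 to 30.56 in intensity for glands, which limits no single gene, and signal over background per probe was not used here.

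The array held 45101 probe sets, of which 34958 had 1 gene, 932 several and 9211 none. Of the single-gene probe sets 99.4% matched the RefSeq table (GRCm38.p6). Each tissue was fitted in limma 3.58.1 (R 4.3.3) with 1 mean for each group and eBayes with the mean-variance trend. Genes under the 40th percentile of mean level (5.33 in glands, 6.19 in tumours) were left out, which left 10916 genes in each tissue. Tests were two-sided with Benjamini-Hochberg adjustment over those genes and a threshold of 0.05. An interaction is the change in heterozygotes minus that in wild-type. Correlations were taken after subtracting group means. No arrays were identical, and the fits were tested on simulated data.

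The 40 genes, the other lists, the markers and the tests were chosen with earlier results of these data known. The text names Mki67, Pcna, Mcm2, Cdk1 and Plk1, the 4 genes with the largest and the 1 with the smallest SD in a class, the 2 with the smallest p in a comparison and class, and, for each other list, the 2 with the smallest p; a few are left unnamed, and genes named for not overlapping were chosen after their values were seen. Likeness names the 10 most and 5 least correlated genes.

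Groups came from the labels, which number repeats but do not state that gland repeats are separate animals, so gland p-values may measure technical spread. Same-numbered heterozygous 4-week and sham glands deviated together in all 3 pairs (correlations 0.111 to 0.330, against at most 0.093 for differently numbered pairs). This met the rule used here for pairing, and no other comparison did. Deviations from a group mean cancel out over its arrays, so high correlations of same-numbered pairs lower the others, and a pairing is not shown. Alternatives covered the probe set rule, the filter, quantile normalization, the variance trend, a replicate block, marker covariates, the tumour with conflicting labels and left-out arrays.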

Additional observations from a re-analysis of the deposited data

Results flagged for a closer look

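In the 10 tumours of irradiated heterozygous hosts, tumour 18 stood apart from the rest in the mean of the replication genes, at 8.86, with the next lowest tumour at a distance of 0.521 of the group's range. In the same tumour Mcm2, a subunit of the replicative helicase, read 9.02, against a group median of 9.63. Its mitotic mean was 9.26, within the range of its group (8.99 to 9.87), and its luminal mean of 11.25 was close to the group median of 11.35. Chance flags about 1 in 20 such sets of values, and 21 sets were examined for such gaps. They were the class means, Mki67, Pcna, Mcm2, Cdk1 and Plk1, each in irradiated heterozygous, sham heterozygous and sham wild-type hosts. Irradiated wild-type hosts and the glands were not examined. The sets share tumours, and Mcm2 is part of the replication mean, so its flag is not independent of the other. Tumour 18 was also the lowest of its group for Mcm3 (9.19), Mcm5 (8.57), Mcm7 (10.97) and Pcna (12.25). The cause was not tested.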

How the results depend on the processing

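No cell cycle gene passed limma's adjusted threshold under any alternative run, in glands (204 comparisons with 1 gland left out and 120 others) or tumours (5 and 50). Over all tested genes the calls per comparison ran from 0 to 19 in glands over these alternatives, the 19 being heterozygous 4 weeks minus 1 week without 1-week array 1, and from 0 to 2 in tumours, against 0 to 5 and 0 as first fitted. Without the 4 muscle-rich glands, the medians of replication and mitotic genes were -0.63 and -0.99 for wild-type 1 week minus sham, -0.52 and -0.63 for wild-type 4 weeks minus sham, -0.086 and -0.37 for heterozygous minus wild-type sham, and 0.66, 1.23, 0.41 and 0.32 for the interactions at 1 and 4 weeks. Without the 3 lymph-node-rich glands they were 0.59 and 1.03 for wild-type 1 week minus sham, 1.25 and 1.51 for heterozygous minus wild-type sham, and -0.72, -1.18, -1.04 and -1.92 for the interactions. The cause was not tested. The first setting leaves only wild-type sham array 1, itself lymph-node-rich and assumed to vary like the rest. The second leaves only the muscle-rich wild-type sham arrays 2 and 3.

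Among named genes, signs turned without the muscle-rich glands in wild-type 1 week minus sham (Cdc45 -0.53, Cdt1 -0.58, Foxm1 -0.26, Kif23 -0.81), wild-type 4 weeks minus sham (Cdc45 -0.26, Mcm7 -0.11, Cenpe -0.30, Bub1b -0.43), heterozygous minus wild-type sham (Cdt1 -0.0052, Aurkb -0.32) and the interactions at 1 week (Mcm3 0.49, Kif23 0.70) and 4 weeks (Rrm2 0.28, Cdc45 0.11, Kif23 0.19). Without the lymph-node-rich glands Mcm7 (-0.27) and Cenpe (-0.80) turned in the interaction at 1 week, and with a muscle covariate Cdc45 (-0.015) and Cdt1 (-0.064) turned in wild-type 1 week minus sham. Single left-out glands gave ranges that crossed 0 in wild-type 1 week minus sham (Cdc45 -0.10 to 0.47, Cdt1 -0.24 to 0.48, Foxm1 -0.012 to 0.37, Kif23 -0.29 to 1.00), heterozygous 4 weeks minus sham (Rrm2 -0.89 to 0.048, Cdt1 -0.50 to 0.12), heterozygous 4 weeks minus 1 week (Mcm7 -0.51 to 0.0009, Cdt1 -0.62 to 0.0070), heterozygous minus wild-type at 4 weeks (Mcm2 -0.045 to 0.60) and the interaction at 1 week (Mcm3 -0.79 to 0.055, Kif23 -1.11 to 0.18, Cenpe -0.049 to 0.99).

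With the replicate block, heterozygous 4 weeks minus sham had medians of -0.086 and -0.31. Both groups hold the same repeat numbers, so the block cannot change these medians. There 1 gene of all tested was called against 2 without the block. Heterozygous minus wild-type at 4 weeks, which did not meet the pairing rule, had 6 against 2. In tumours the medians lay between -0.30 and 0.079 for replication and between -0.39 and 0.15 for mitotic genes. These settings left out no tumour of a heterozygous host. The part of single tumours of those hosts, such as the flagged irradiated heterozygous host 18, was thus not tested. The irradiated wild-type host 22 was left out after seeing the data, and Mki67, Top2a and Ccna2 likewise.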

Other observations

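Outside all lists, the genes whose pattern was most like the mean of the mitotic genes over the 17 glands, after group means were taken away, were Kpna2 (0.989), Pclaf, Shcbp1, Knstrn, Fignl1, Ccnf, Stmn1, Zwilch, Ckap2l and Cep55 (0.976). Kpna2 encodes a nuclear import receptor, Pclaf a partner of the Pcna clamp and Stmn1 the microtubule destabiliser stathmin. The median correlation over all genes outside the lists was 0.07. The genes that ran most strongly the other way were Ypel3 (-0.94), Txnip (-0.94), Wipi2 (-0.92), Dnase2a (-0.91) and Pou6f1 (-0.91). Txnip, an inhibitor of thioredoxin and of glucose uptake, thus tended to be lower in those glands of a group in which the mitotic genes were higher.

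In the 48 tumours the closest were Arhgap11a (0.925), Knstrn, Knl1, Sgo2a, Cep55, Plk4, Exosc8, Cdca3, Cenpp and Ckap2l (0.861). Knl1 and Cenpp belong to the kinetochore, Sgo2a guards cohesion at centromeres and Plk4 controls centriole duplication. Knstrn, Cep55 and Ckap2l were thus named in both tissues. The most opposed were Clcn4 (-0.71), Zfp715 (-0.69), Slc22a5 (-0.68), Slc8b1 (-0.68) and Zbtb4 (-0.67). Over the tumours the mean of the G1 genes followed the replication mean at 0.29 within groups, against 0.96 in glands.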
